A study of Mus musculus with 12 samples.

Results

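The untreated baseline described here consists of the 3 arrays labelled 0 h in a study of 12 GeneChip miRNA arrays, and it was read over the 717 mouse probe sets whose names start with mmu-, of 1412 mouse probe sets in all. Members were taken by these labels and names alone, a choice that used no measured value but was made with earlier results of these data known. The cells were NIH3T3, a line of mouse embryo fibroblasts, grown in DMEM with fetal bovine serum and proliferating asynchronously. The study also challenged this line with tunicamycin at 2 μg/ml, which blocks the N-glycosylation of proteins and stresses the endoplasmic reticulum, for 2, 5 or 10 h (3 arrays each), and no comparison with those times was made. All 12 arrays came from this 1 immortal line, and neither its labels nor the methods say whether the 3 arrays of a time came from separate cultures, so the spread given below is a spread between arrays that may be technical. Of the 717 probe sets, 596 carried a plain miRNA name and 121 a star, the older mark for the arm of a hairpin first taken to be its less abundant product.

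A miRNA is cut from the hairpin of a longer transcript, first by Drosha in the nucleus and then by Dicer in the cytoplasm, which leaves a short duplex of both hairpin arms. One strand is loaded into an Argonaute protein and the other is mostly degraded. The loaded strand finds its target mRNAs mainly by pairing through its seed, the bases 2 to 8 from the 5′ end, so miRNAs that share a seed form a family, and hairpins that lie close together are often cut from 1 transcript as a cluster.

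The let-7 family carried the largest share of the signal, and the sequences of its 9 listed members are shown because they share 1 seed and differ by few bases elsewhere. They were taken from RefSeq (GRCm38.p6), which matched 312 of the 717 probe sets by name, and capitals mark the seed.
let-7c: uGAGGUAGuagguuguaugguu
let-7b: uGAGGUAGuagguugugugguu
let-7a: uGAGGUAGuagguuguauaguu
let-7d: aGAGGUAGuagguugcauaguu
let-7i: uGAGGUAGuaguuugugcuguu
let-7e: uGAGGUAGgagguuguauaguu
let-7f: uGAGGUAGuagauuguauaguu
let-7g: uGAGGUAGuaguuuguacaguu
miR-98: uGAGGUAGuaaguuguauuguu
These hairpins are spread over the genome. Let-7c is encoded on the plus strand at chr15:85706616-85706637, beside let-7b at chr15:85707325-85707346, and again at chr16:77599672-77599693, where no protein-coding gene spans either copy in RefSeq. Let-7a, let-7f and let-7d lie together on the minus strand of chromosome 13, with let-7a at chr13:48538239-48538260. MiR-98 lies on the plus strand within Huwe1 at chrX:151913229-151913250.

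The other miRNAs that led the profile are shown so that their seeds can be compared, since some of them share one.
miR-23a: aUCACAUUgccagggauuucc
miR-27a: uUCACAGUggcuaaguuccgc
miR-24: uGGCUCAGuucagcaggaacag
miR-125b-5p: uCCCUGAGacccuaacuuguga
miR-125a-5p: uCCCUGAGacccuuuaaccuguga
miR-31: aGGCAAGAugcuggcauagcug
miR-22: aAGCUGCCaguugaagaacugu
miR-16: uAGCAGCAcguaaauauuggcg
miR-15b: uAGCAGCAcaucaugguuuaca
miR-199a-3p: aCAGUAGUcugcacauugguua
miR-199b: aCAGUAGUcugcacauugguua
miR-17: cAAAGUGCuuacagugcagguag
miR-20a: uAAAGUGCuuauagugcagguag
miR-106a: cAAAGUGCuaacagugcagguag
MiR-23a, miR-27a and miR-24 are cut from 1 stretch of the plus strand of chromosome 8, with miR-23a at chr8:84208563-84208583 and a copy of miR-24 at chr8:84208875-84208896. MiR-16 and miR-15b share an interval of Smc4 on the plus strand, at chr3:69009918-69009939 and chr3:69009775-69009796. MiR-199a-3p lies within Dnm3 on the plus strand (chr1:162217883-162217904) and within Dnm2 on the minus strand (chr9:21496498-21496519), while miR-199b lies within Dnm1 (chr2:32318524-32318545, plus strand), all of them dynamin genes. Of the 42 miRNAs among the 50 highest that matched RefSeq, 23 had at least 1 copy inside the span of a protein-coding gene.

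The values were log2 signals that the authors had normalized with RMA, which makes the distributions of the arrays alike, so part of the likeness between arrays was set by the processing. A probe set's signal also depends on how well its probes bind, and the order of probe sets is therefore an order of array signal, not of molecules per cell. Over the 717 probe sets the values ran between 1.09 and 14.8, and the array medians were 3.50, 3.59 and 3.48. The deposited tables held no detection calls. A background limit was therefore set for each array at its most frequent value plus 3 times the spread below that value, over all 1412 mouse probe sets, which gave 2.88, 2.89 and 2.81 on the log2 scale.

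About the same number of miRNAs stood above background on each array. The number above the limit was 403, 411 and 405 of 717 on arrays 1, 2 and 3. On all 3 arrays 377 (52.6%) were above it, on 2 arrays 26, on 1 array 36, and on none 278 (38.8%). The profile thus held a long flat floor and a steep head, with 177 probe sets under a mean of 2 and 24 with a mean of 13 or more.

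**Figure D1:**
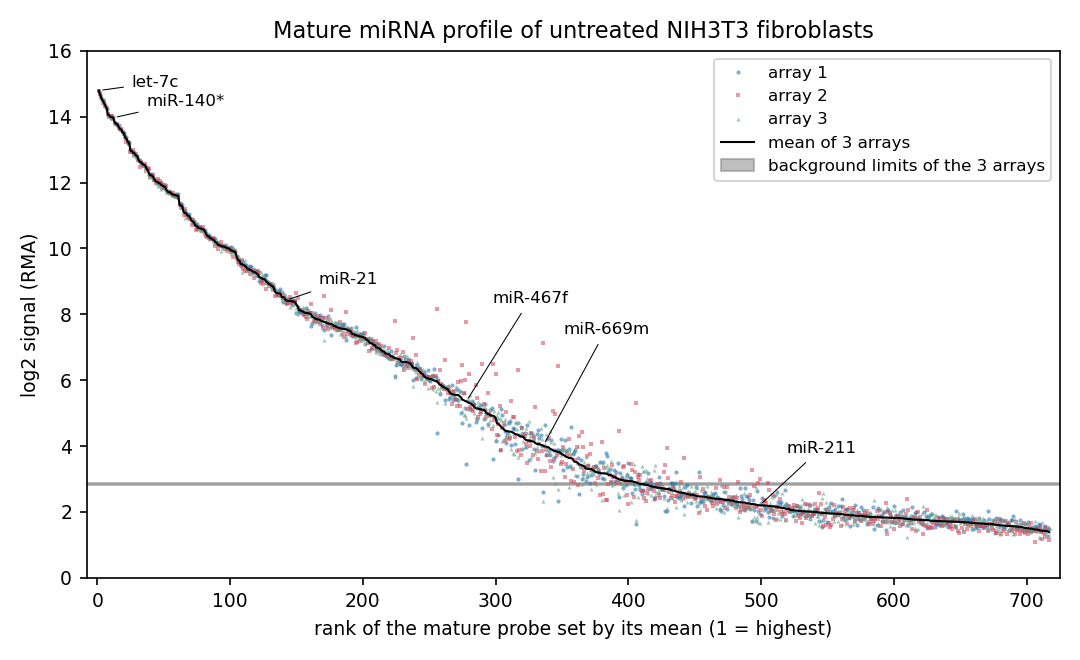
Log2 signal (RMA) of the 717 mature probe sets in untreated NIH3T3 fibroblasts against their rank by mean, with points for the 3 arrays, a black line for the mean and a grey band for the 3 background limits. The curve fell steeply down to the limits and was flatter below them, and the points scattered most between means of 3 and 5.

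Signal was concentrated in few miRNAs. On the linear scale, the 10 highest probe sets held 31.5 ± 0.193% of the summed signal of all 717 (SD, n = 3 arrays), the 25 highest 58.6 ± 0.269% and the 100 highest 92.8 ± 0.0679%. Of the signal, 50% was reached with 20, 20 and 19 probe sets on arrays 1, 2 and 3, and 90% of it with 84, 84 and 83. These are shares of array signal and carry the same limit from probe binding.

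Let-7c was the highest probe set on every array, with log2 signals of 14.79, 14.78 and 14.80. Let-7 miRNAs accumulate as cells differentiate and repress Hmga2, Ras genes and Lin28. MiR-23a came next at 14.68 on each array, followed by miR-125b-5p, a homologue of the worm lin-4 miRNA, at 14.57, 14.59 and 14.57. None of these 3 overlapped its neighbour in the order over the arrays.

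Let-7b had 14.51, 14.42 and 14.54, and miR-31, which is expressed in many mesenchymal cells, had 14.41, 14.47 and 14.40. The values of this pair overlapped, so that array 2 put miR-31 above let-7b and arrays 1 and 3 did the reverse. MiR-24, a partner of miR-23a, had 14.34, 14.32 and 14.35, and miR-709 had 14.23, 14.27 and 14.29. The remaining places among the first 12 went to let-7a (mean 14.06), miR-23b (14.04), miR-22 (13.99), miR-16 (13.98) and miR-140* (13.97).

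The order of neighbours was only partly resolved by 3 arrays. Of the 25 steps between neighbours in rank down to the 26th place, 12 had no overlap between the arrays of the higher and the lower miRNA, and 13 did. From let-7a down to miR-140*, all neighbours overlapped. The lower bound of the 25 highest was not a gap either, since miR-15b, just inside, had 13.01, 12.92 and 12.96 and miR-20a, just outside, had 12.96, 12.93 and 12.99. Of the 25 highest probe sets of each single array, 24 were shared by all 3 arrays, as were 8 of the 10 highest and 97 of the 100 highest. No member of the 25 highest varied by more than 0.147 over the arrays.

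**Figure D2:**
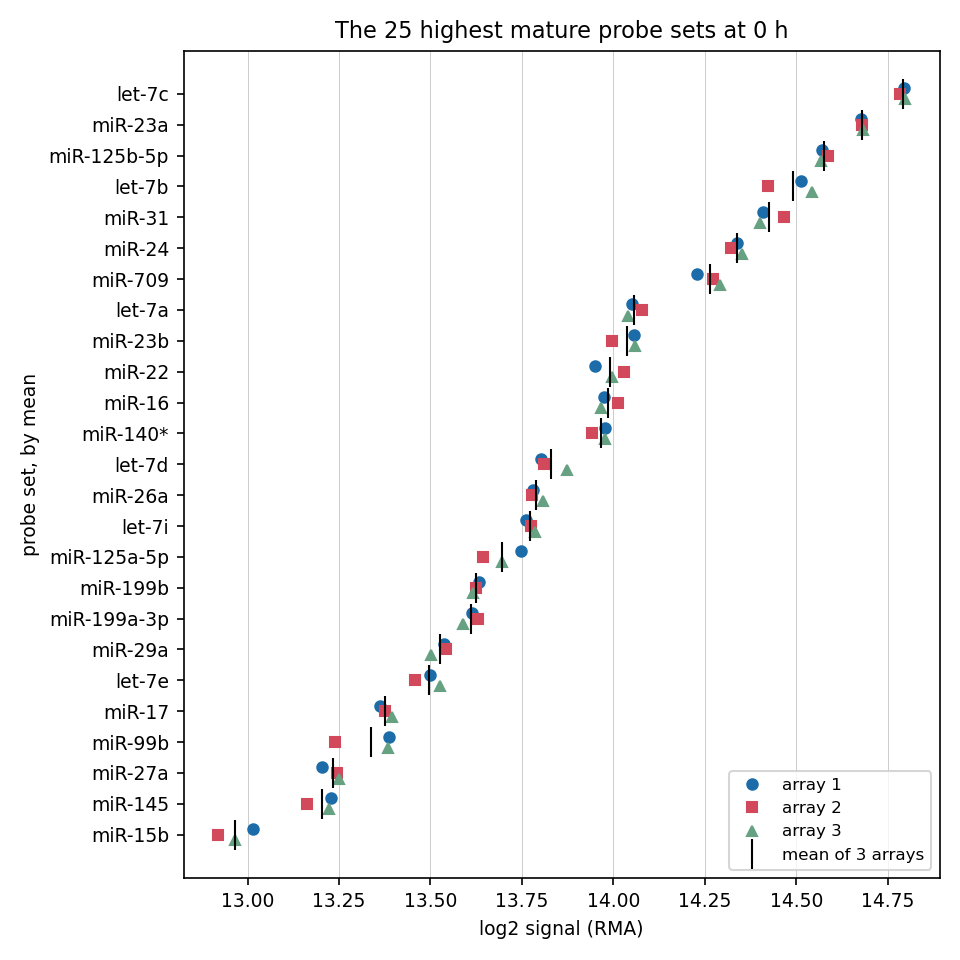
Log2 signal (RMA) of the 25 highest mature probe sets at 0 h on each of 3 arrays (symbols, offset vertically so that they can be told apart) and their mean (black bar). Let-7c led at a mean of 14.79 and miR-15b closed the list at 12.97, and many neighbours in between overlapped.

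Some probe sets stand for the same or nearly the same sequence. In RefSeq, miR-199a-3p and miR-199b have the same mature sequence over 22 bases, and their signals were 13.61, 13.63 and 13.59 for miR-199a-3p and 13.63, 13.62 and 13.62 for miR-199b. Let-7b and let-7a each differ from let-7c by 1 base, as miR-27a does from miR-27b, miR-103 from miR-107 and miR-17 from miR-106a. How far such probe sets read each other's miRNA was not tested.

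Grouped by seed, the head of the profile was narrower than its names. Among the 25 highest, 22 matched RefSeq and carried 14 distinct seeds, and 12 of the 22 shared a seed with another of them. The let-7 seed GAGGUAG occurred 6 times in the 25 highest and 7 times in the 50 highest. The seed AAAGUGC of miR-17 occurred once in the 25 highest and 5 times in the 50 highest. A first base of U, which Argonaute proteins favour, was present in 14 of the 22 (63.6%), against 40.9% of the 1679 mature mouse sequences in RefSeq. Members of a family were counted separately in this, let-7 among them, so the 22 are not independent. It was present in 73 of the 178 matched probe sets above the limit on all 3 arrays (41.0%) and in 48 of 109 above it on none (44.0%). These matched probe sets are not a random part of the 717, since names of listed families were matched by hand.

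Families were described from 37 lists written with earlier results of these data known, which together held 100 probe sets and 75.4 ± 0.242% of the signal (SD, n = 3). Of the 28 families with several members, all members of 21 were above the limit on all 3 arrays, as was each of the 9 with a single member. Against this, 52.6% of all mature probe sets were above it. Members of a family spanned a median of 4.42 log2 units between the lowest and the highest mean, a spread that includes differences in probe binding.

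The 5 families with the largest share held 38.4 ± 0.22% of the signal over 26 probe sets. Let-7 alone held 16.97%, 16.91% and 17.23% on arrays 1, 2 and 3. The miR-23 family followed with 6.31 ± 0.0442%, then miR-125 with miR-351 (5.67 ± 0.0336%), the family of miR-17, miR-20, miR-93 and miR-106 (5.41 ± 0.05%), and that of miR-15 and miR-16 (3.96 ± 0.0314%). The gap between let-7 and every other family was far wider than the SD over arrays. That SD does not cover differences in probe binding, in reading of near-identical miRNAs or in the number of probe sets, which was 9 for let-7 and 2 for miR-23.

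**Figure D3:**
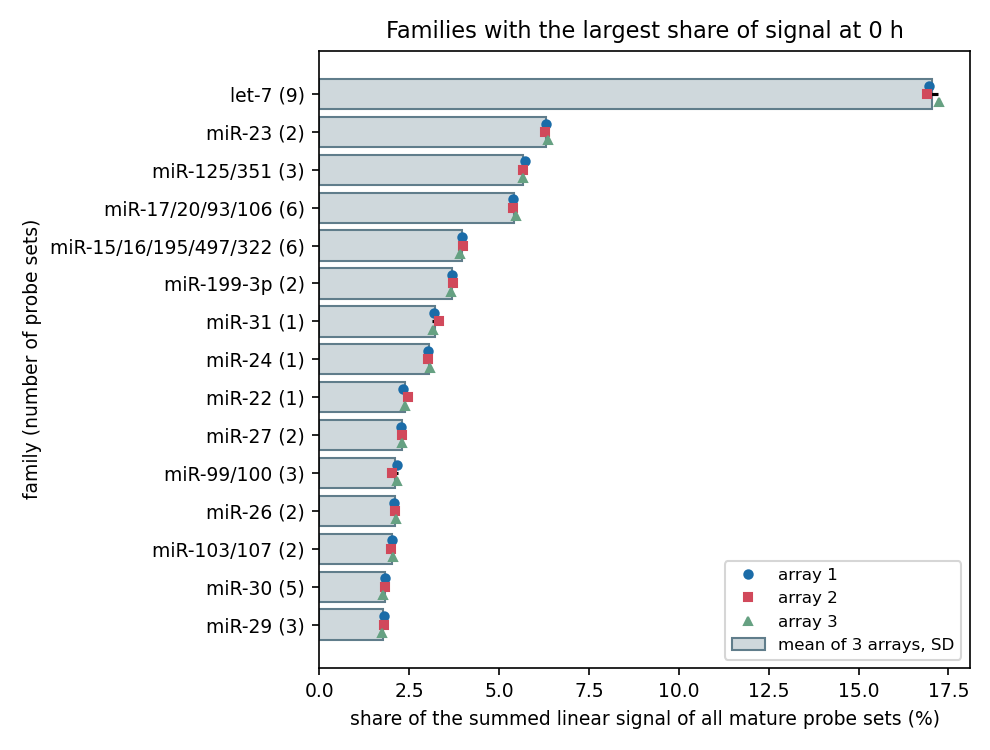
Share of the summed linear signal of the 717 probe sets held by each of the 15 families with the largest share, with bars and error bars for the mean and SD of 3 arrays and symbols for each array. The number of probe sets is in brackets, and the let-7 bar, near 17%, stood well above miR-23 at 6.31%.

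Within let-7 all 9 probe sets were above the limit on every array. Let-7d had 13.80, 13.81 and 13.87, let-7i 13.76, 13.77 and 13.78, and let-7e 13.50, 13.46 and 13.53. Let-7f was lower at 12.01, 12.05 and 11.98, let-7g had 11.62, 11.69 and 11.61, and miR-98 was lowest at 8.05, 8.10 and 7.94. The spread from let-7c to miR-98 was thus 6.76 log2 units.

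MiR-17 and miR-20a, products of the Myc-activated cluster on chromosome 14 that promotes cell cycle entry, had means of 13.38 and 12.96. All 6 members of this seed family lay at 11.60 or above, the lowest being miR-20b. MiR-16 and miR-15b, which restrain cyclins, were at 13.98 and 12.97, whereas their relatives miR-15a (10.27), miR-195 (10.18), miR-497 (7.69) and miR-322 (7.38) were lower. MiR-26a, which targets Ezh2, had 13.78, 13.78 and 13.81, and miR-26b had a mean of 7.54.

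In other families the members differed widely in signal. MiR-29a, which represses collagen and other matrix genes, had 13.54, 13.54 and 13.50, but miR-29b had 7.75, 7.90 and 7.62 and miR-29c had 6.83, 6.76 and 6.79. MiR-152 had a mean of 12.04, and its relative miR-148b had 7.86, while miR-148a was at background on all 3 arrays. Likewise miR-146b had 9.24 while miR-146a, which NF-kB induces, was at background on all 3 arrays (2.48, 1.93 and 2.07). In the miR-34 family, whose miR-34 members p53 induces, 4 of 6 listed probe sets were above the limit on all 3 arrays. They were miR-34a (10.82), miR-34c (10.61), miR-34b-5p (7.27) and miR-449b (5.81). The family members miR-449a (1.52) and miR-449c (1.58) were not above the limit on any array.

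The cell type label was set beside lists of cell type miRNAs. These lists were written with earlier results of these data known, so the counts describe the profile and do not test the label. All 13 of the fibroblast and mesenchymal list were above the limit on all 3 arrays, against 52.6% of all 717. Their means lay between 8.43 (miR-21) and 14.57 (miR-125b-5p), and their summed share was 16.9% to 17.1% of the signal. MiR-199a-5p (12.83) and miR-214 (12.62), cut from 1 transcript within Dnm3, miR-145 (13.20) and miR-143 (12.56), which mark smooth muscle and mesenchymal cells, and miR-221 (12.09) and miR-222 (11.62), which repress p27, belong to it. MiR-21, a miRNA known to be abundant in cultured fibroblasts and encoded within the span of Vmp1, was the lowest of the list at 8.35, 8.39 and 8.55, rank 142 of the 717.

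Of 48 miRNAs on the lists of other cell types, 12 were above the limit on all 3 arrays and 30 on none, where 52.6% and 38.8% of all 717 were, and their summed share was 0.806% to 0.814%. At background on all 3 arrays were miR-122 of liver, miR-1 (1.49) and miR-133a of muscle, and miR-142-3p (1.44) and miR-223 (1.96) of blood cells. Of the 4 on the pancreas list, miR-375 (1.65) and miR-216a (2.52) were at background and the other two were not. No member of the 10 from embryonic stem cells was above it on any array, with means up to 2.02. The list of blood cells had no member above it on all 3 arrays, nor had the list of endothelial cells.

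The 12 that were above it on all 3 arrays came from 5 of the lists. All 3 of the sensory list were among them. MiR-182 (11.67, 11.71 and 11.71) and miR-183 (9.78, 9.69 and 9.75), which are known from sensory cells, stood high while miR-96 of the same cluster had 4.56, 3.74 and 4.56. MiR-205, a miRNA of stratified epithelia, had 9.30, 9.16 and 9.18. MiR-200c, a repressor of Zeb1 and Zeb2, had 7.70, 7.65 and 7.86. Its cluster partner miR-141, along with miR-429, was at background on all 3 arrays, and miR-203 was barely above the limits at 3.06, 2.99 and 2.88. MiR-206 of muscle had 4.82, 5.26 and 5.21, and miR-128, abundant in brain, had 7.10, 7.02 and 7.09. The other members above the limit were miR-9 (4.06) and miR-9* (6.66) of the neural list and miR-216b (5.08) and miR-217 (4.28) of the pancreas list.

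The miRNAs that the study names or that are known from the unfolded protein response started from very different levels. Of the 15 on that list, 12 were above the limit on all 3 arrays, against 52.6% of all 717. MiR-708 (10.10, 10.09 and 10.11) lies in the upper part of the profile, and miR-216b (5.28, 5.10 and 4.85) and miR-217 (4.29, 4.37 and 4.16), neighbours on chromosome 11 known from exocrine pancreas, lie nearer the floor. MiR-204 was at background on all 3 arrays. MiR-211, which shares its seed region with miR-204 and lies within Trpm1, had 1.93, 3.00 and 1.68, so that only array 2 put it above the limit.

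Arm preference was read in 120 pairs of a plain and a star probe set. Both arms were above the limit on all 3 arrays in 57 pairs, the plain arm alone in 30, the star arm alone in 6 and no arm in 27. Among the 93 pairs with at least 1 arm above it, the plain arm exceeded the star arm by 1 log2 unit or more on every array in 70, the star arm exceeded the plain arm by as much in 8, and 15 fell in neither class. The median difference over the 93 pairs, plain minus star, was 3.81 log2 units. Of the star strands, 64 of 121 (52.9%) were above the limit on all 3 arrays, against 313 of 596 plain names (52.5%), and with the limit at the 95th percentile of the hairpin probe sets, 39 (32.2%) were, against 238 plain names (39.9%). Together the star strands held 5.06 ± 0.0245% of the signal (SD, n = 3), and 2.71 ± 0.0146% without miR-140*.

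The widest plain arm excess was that of let-7c, at 14.79 against 1.76 for let-7c-2* and 2.30 for let-7c-1*, both star strands at background. Let-7a exceeded let-7a* by 12.16 log2 units and miR-29a exceeded miR-29a* by 11.95, again with the star arms at background on all 3 arrays. A difference against an arm at background depends on the floor of the array. MiR-125b-5p (14.57), miR-16 (13.98) and miR-24 (14.34) were far above their star arms miR-125b* (3.62), miR-16* (3.71) and miR-24-1* (4.32). These star arms were above the limit on all 3 arrays but under the 95th percentile of the hairpin probe sets (5.10, 5.14 and 4.93). For miR-125b and miR-24 another probe set of the opposite arm was higher, with 9.09 for miR-125b-3p and 10.37 for miR-24-2*.

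The hairpins with a high star arm are shown with both arms where RefSeq holds them, with capitals for bases 2 to 8, since here the arm named as a by-product gave the signal or shared it.
miR-140*: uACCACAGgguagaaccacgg
miR-31: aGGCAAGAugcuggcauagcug
miR-31*: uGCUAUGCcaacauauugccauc
miR-872: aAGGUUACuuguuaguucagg
miR-872*: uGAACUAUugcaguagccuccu
miR-9: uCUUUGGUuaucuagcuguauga
miR-9*: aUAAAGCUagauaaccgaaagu
miR-141: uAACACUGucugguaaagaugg
miR-141*: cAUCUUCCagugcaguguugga
miR-28: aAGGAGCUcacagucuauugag
miR-28*: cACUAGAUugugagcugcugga
MiR-140* lies within Wwp2 at chr8:107551288-107551308 (plus strand) and miR-872* within Ift74 at chr4:94665206-94665227 (plus strand). The arms of a hairpin carry different seeds, so each arm has its own set of possible targets.

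MiR-140* was the only star strand among the 25 highest. MiR-140, a regulator of cartilage development, averaged 11.98 on its plain arm, whereas miR-140* had 13.98, 13.94 and 13.98, and the difference of -1.98 ± 0.0756 (SD, n = 3) had the same sign on every array. Both arms were well above background. The other pairs in which the star arm led by 1 log2 unit or more on every array were those of miR-872, miR-9, miR-467d, miR-141, miR-135a, miR-297c and miR-3072.

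MiR-872 had 6.44 and miR-872* 8.91 on average, and the lowest and highest difference over arrays was -2.54 and -2.41. The arms of miR-9, a neural miRNA, were lower, with 4.49, 3.59 and 4.11 for miR-9 and 6.55, 6.91 and 6.51 for miR-9*. In 3 of the 8 pairs the plain arm was not above the limit on any array. MiR-141 had 1.81 and miR-141* 5.57, miR-135a had 1.80 and miR-135a* 4.93, and miR-297c had 1.97 and miR-297c* 5.10. MiR-3072 was above the limit on array 1 alone, with a mean of 2.81 against 7.57 for miR-3072*. The levels of miR-467d and miR-467d* were 4.93 and 8.29.

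Some hairpins gave similar signal from both arms. MiR-28 had 10.62 and miR-28* 10.01, miR-34c had 10.61 and miR-34c* 9.97, miR-30e had 8.09 and miR-30e* 7.57, and miR-322 had 7.38 and miR-322* 7.29. Among star strands the highest after miR-140* was miR-31* (12.26, 12.18 and 12.20), whose plain partner was still higher at 14.43. MiR-24-2* (10.37), miR-199b* (10.24), miR-28*, miR-34c*, miR-99b* (9.53), miR-193* (9.48), miR-214* (9.39) and miR-106b* (9.28) complete the 10 highest. Star strands made up 6 of the 100 highest probe sets.

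**Figure D4:**
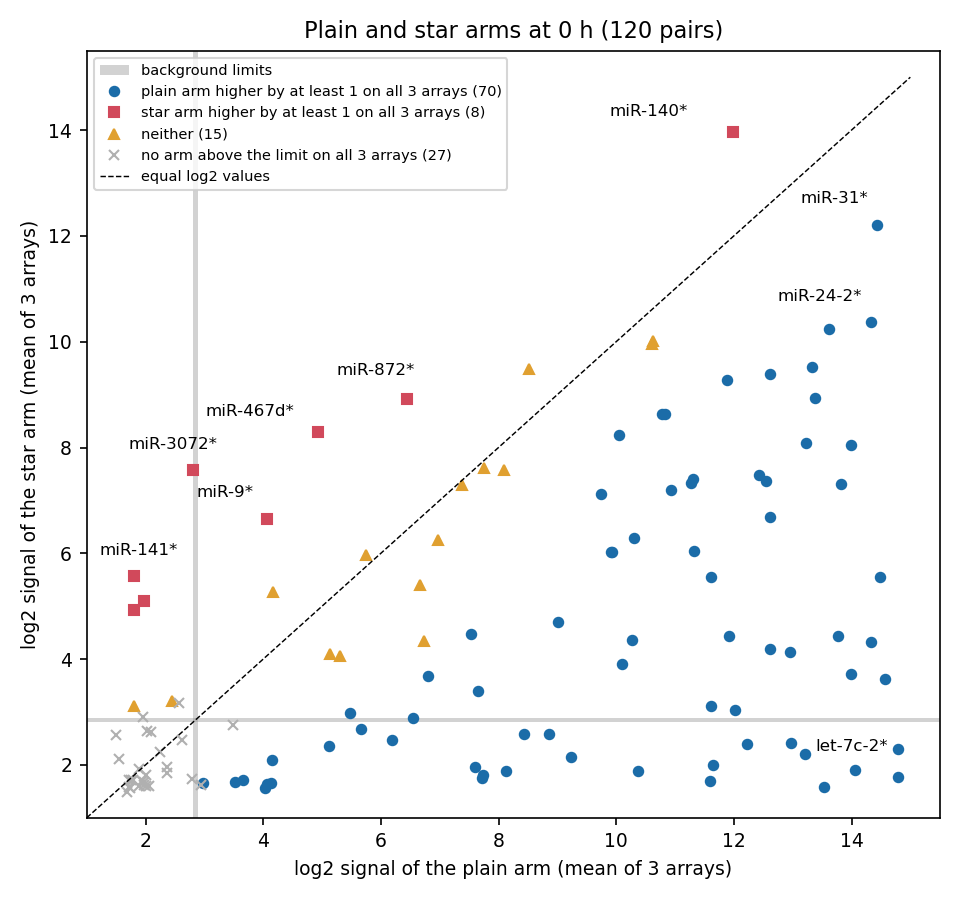
Log2 signal of the plain arm (horizontal axis) and the star arm (vertical axis) of 120 pairs, as means of 3 arrays, with grey bands at the background limits and a dashed line where both are equal. Most pairs lay below the line, and the 8 pairs with a higher star arm, led in level by miR-140*, lay above it.

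Where the array named arms as 5p and 3p, which gave 74 pairs, the 5p and the 3p arm led in similar numbers. In 22 pairs both arms were above the limit on all 3 arrays, in 7 the 5p arm alone, in 12 the 3p arm alone and in 33 no arm. Among the 41 pairs with at least 1 arm above the limit on all 3 arrays, the 5p arm led by 1 log2 unit or more on every array in 16 and the 3p arm in 17. MiR-125b-5p (14.57) stood 5.49 log2 units above miR-125b-3p (9.09), and miR-125a-5p (13.70) stood 5.64 above miR-125a-3p (8.06). The opposite was seen for miR-466a, with the 5p arm at background (1.85) and the 3p arm at 9.37, and for miR-296, with 2.43 for the 5p arm and 8.39 for the 3p arm.

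Of 30 listed clusters, all listed members of 22 were above the limit on all 3 arrays, but these lists leave out most star arms. A further 39 clusters were formed by position alone, from probe sets with a single place in the array annotation and hairpins at most 10000 bases apart. All probe sets of 11 of these were above the limit on all 3 arrays, and those of 4 were above it on no array. The cluster of miR-23a, miR-27a and miR-24 lay between 13.23 and 14.68, and its paralogue with miR-23b and miR-27b lay between 12.54 and 14.34, sharing the miR-24 probe set. MiR-99b (13.34), let-7e (13.49) and miR-125a-5p (13.70), neighbours on chromosome 17 within Spaca6, differed by little. MiR-99a (9.89), in the matching cluster with let-7c (14.79) and miR-125b-5p (14.57), was lower than its partners, though let-7c and miR-125b-5p are also encoded elsewhere.

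Signals differed within clusters. Along the miR-17 cluster on chromosome 14 the means were 13.38 for miR-17, 12.96 for miR-20a, 12.37 for miR-19b, 11.91 for miR-92a, 10.93 for miR-18a and 7.71 for miR-19a, of which miR-19b and miR-92a have a further copy on the X chromosome. In its paralogue on the X chromosome, miR-106a had 12.52 and miR-20b 11.60, while miR-18b had 4.44 and miR-363 was at background on all 3 arrays (1.83). MiR-106b, miR-93 and miR-25 within Mcm7, a replication licensing gene, had 11.88, 12.43 and 11.71. In the X-linked cluster from miR-322 to miR-450, 5 of 9 listed probe sets were above the limit on all 3 arrays, close to the 52.6% of all 717. MiR-351 (10.00), miR-503 (7.66) and miR-322 (7.38) were highest. The 4 at background on all 3 arrays were miR-542-3p (2.48), miR-450a-5p (2.06), miR-450a-3p (2.29) and miR-450b-5p (1.82).

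Embryonic clusters were at the floor. None of the 11 probe sets from miR-290 to miR-295, the main miRNA cluster of mouse embryonic stem cells, was above the limit on all 3 arrays, and their means lay between 1.63 and 2.73. The 5 probe sets from miR-302 to miR-367 were at background on every array, between 1.55 and 1.76. In the imprinted Dlk1-Dio3 region, 21 of 39 listed probe sets were above the limit on all 3 arrays and 14 on none, close to the shares over all 717 (52.6% and 38.8%). The highest of these 39 were miR-494 (8.59, 8.49 and 8.41), miR-127 (8.08, 8.12 and 8.17) and miR-541 (7.70, 7.31 and 7.66), and all 39 lay under the level of the 100 highest miRNAs.

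By position in the array annotation, 618 probe sets had a single place, and 264 of them fell in the 39 positional clusters. Of the probe sets in these clusters 50% were above the limit on all 3 arrays, against 183 of 354 (51.7%) for the rest of the 618. The other 99 probe sets, without a single place, were left out when the clusters were formed. Partners of such miRNAs, among them let-7d and miR-15b, therefore counted as outside a cluster. These shares thus do not compare clustered with unclustered miRNAs. The share above the limit differed more by chromosome, at 25.6% of 43 on chromosome 7, 29.6% of 27 on chromosome 3 and 40.2% of 92 on chromosome 12, against 70.0% of 20 on chromosome 16 and 71.4% of 14 on chromosome 17. Chromosome 7 holds the positional cluster from miR-290 to miR-295, with 0 of 14 probe sets above the limit on all 3 arrays. On chromosome 3 lies that from miR-302 to miR-367, with 0 of 8. Chromosome 12 holds the Dlk1-Dio3 region, with 75 probe sets in its largest positional clusters, of which 30 were above the limit.

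The 3 arrays were close, and array 2 stood apart from the others. Across the 717 probe sets, as a description over miRNAs that share an array and its normalization, Pearson's r was 0.987 for arrays 1 and 2, 0.997 for arrays 1 and 3, and 0.988 for arrays 2 and 3. A difference of 1 log2 unit or more was seen for 40, 7 and 42 probe sets in these pairs. No pair of arrays was a repeat, with at most 1 value equal in both. The median range over the 3 arrays was 0.277 log2 units, and 56 probe sets had a range of at least 1, of which 29 were above the limit on all 3 arrays. Without array 2 7 probe sets had such a range.

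Spread depended on level. The median range was 0.0446 for means of 13 or more, 0.123 for means from 9 to 11, 0.302 from 5 to 7, 0.681 from 3 to 5 and 0.308 under 2. Of the 56 probe sets with a range of at least 1, 27 had a mean between 3 and 5 and none a mean of 9 or more. In the tunicamycin groups, taken each on its own, 18 probe sets (2 h), 51 (5 h) and 21 (10 h) had such a range.

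Array 2 differed from the mean of arrays 1 and 3 by 0.5 or more upwards in 66 probe sets and downwards in 44. It was the highest array for 41 of the 56 probe sets with a range of at least 1 and the lowest for 12. MiR-669m had 7.12 on array 2, against 2.59 and 2.33 on arrays 1 and 3. MiR-467f had 7.77 on array 2, against 3.46 and 4.84, and miR-1192 had 6.42, against 2.34 and 2.69. MiR-467b*, miR-148a*, miR-467e*, miR-297b-3p, miR-138*, miR-297c* and miR-667 complete the 10 widest ranges, and array 2 was the highest in each of them.

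Many of these belong to the miR-297, miR-466, miR-467 and miR-669 families, most of which come from an intron of the imprinted gene Sfmbt2 on chromosome 2 and are rich in short repeats. This grouping was chosen after the values were seen. Most names of these families had no match in RefSeq, so their sequences could not be searched. The matched members with an ACACAC run are shown with bases 2 to 8 in capitals.
miR-467f: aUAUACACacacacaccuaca
miR-467g: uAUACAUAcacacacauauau
They lie outside that intron, within Fxr2 (chr11:69635419-69635439, minus strand) and Grk4 (chr5:34732872-34732892, minus strand). The letters ACACAC were searched on the strand of the mature miRNA only, and occurred in 5 of the 312 matched probe sets and in 11 of the 1679 mature sequences in RefSeq. The remaining 3 of the 5, miR-574-3p, miR-362-3p and miR-568, differed between array 2 and the mean of arrays 1 and 3 by -0.13, -0.31 and 0.09, against 3.62 for miR-467f and 1.98 for miR-467g.

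Of the 54 probe sets of these families, 40 were above the limit on all 3 arrays and 11 on none, beside 52.6% and 38.8% of all 717, and they held 1.30% of the signal. Array 2 exceeded the mean of arrays 1 and 3 by 0.5 or more in 16 of the 54 (29.6%), against 50 of the 663 other probe sets (7.54%), and fell below it by as much in 4 of the 54 and in 40 of the others. The bright members were steady, with 10.09, 9.98 and 10.08 for miR-467a and 9.43, 9.35 and 9.33 for miR-466a-3p. The departures of array 2 rest on a single array, and whether they came from the cells or the array cannot be told apart.

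**Figure D5:**
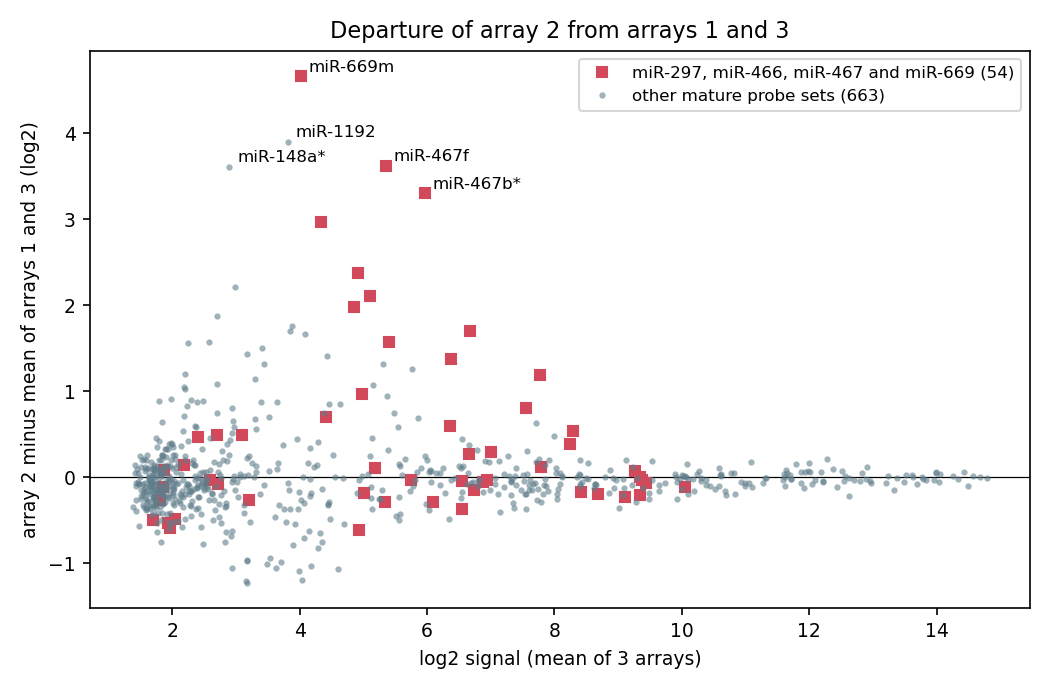
Array 2 minus the mean of arrays 1 and 3 (log2) against the mean of the 3 arrays (log2 signal), with squares for the 54 probe sets of the miR-297, miR-466, miR-467 and miR-669 families and dots for the other 663. Departures upwards reached 4.67 for miR-669m and were found at means under 9, while probe sets above that level stayed near 0.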

How the data were processed

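The authors hybridised biotin-labelled total RNA to GeneChip miRNA arrays and deposited RMA-normalized log2 signals. Versions of RMA and of the array, and the build behind its coordinates, are not given in the sources consulted. A second table holds the same values (largest difference 0) beside the authors' means, ratios, fold changes and p-values over time, which were not used. No further normalization was applied and no test was run, since 1 group is described. Members, lists, the background limit and the rule for named miRNAs were chosen with earlier results of these data known, and miR-199b was added to its family list after the values were read. Named were the 25 highest, list members, the 10 widest arm differences each way, the 10 highest star strands, the 10 widest ranges and miRNAs that the study names. Shares are sums of 2 to the power of the log2 value. RefSeq supplied sequences. Calculations used Python 3.11.15, numpy 2.4.6, scipy 1.17.1 and pandas 2.3.3 and were tested on simulated data. Alternatives covered the limit, scaling, arm step and each array left out. The number of arrays limits the precision.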

Additional observations from a re-analysis of the deposited data

Results flagged for a closer look

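The arrays also hold 690 probe sets for hairpin precursors, which the description above does not use. Of these, 180 (26.1%) gave a signal above the background limit on all 3 arrays at 0 h, and 209, 219 and 223 did on arrays 1, 2 and 3. The highest was the hairpin of miR-1944 with 10.60, 10.72 and 10.62, beside a mature probe set at 10.07, 10.06 and 10.02. A hairpin probe set of miR-465c had 10.34, 10.34 and 10.36, while miR-465c-5p (mean 2.03) and miR-465c-3p (mean 2.36) were at background on all 3 arrays. The part of probe binding in these signals was not tested.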

How the results depend on the processing

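The 12 summary results were recomputed under 12 alternative settings, which gave 82 values. Of these, 74 stayed within tolerance, which was 1.5 times for a count, the SD over arrays for a share, and the SD of the 3 pairwise median differences for the median range. Star strands above background on all 3 arrays numbered 39 with the limit at the 95th percentile of the hairpin probe sets, which lies higher, against 64. The median range of 0.277 became 0.327 with the arrays shifted to 1 median and 0.204 over only the probe sets above the limit on all 3 arrays, and it ran between 0.133 and 0.184 with 1 array left out, where fewer arrays give a narrower range. The count of 56 probe sets with a range of at least 1 was 29 over only those above the limit, and ran between 7 and 42 with 1 array left out, the lowest being without array 2. The number of probe sets above the limit on all 3 arrays ran between 277 and 402 over the limits tried. With 3 arrays and no detection calls, values near the limit were not resolved. No paired analysis was possible because a single group is described and no test was run.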

Other observations

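Among probe sets with late miRNA numbers, 12 carry names from miR-2132 to miR-2146, a group chosen after its values were seen. Of these, 10 were above the background limit on all 3 arrays, against 52.6% of all 717 probe sets. Among the 100 highest of the 717 were 9 of them, and together they held 4.82 ± 0.270% of the summed linear signal (SD, n = 3 arrays). The highest were miR-2138 (12.90, 12.98 and 12.83), miR-2134 (12.25, 12.42 and 12.16) and miR-2137 (12.14, 12.22 and 12.18). Over all 118 probe sets whose miRNA number has 4 digits, 58 were above the limit on all 3 arrays, close to the 52.6% of all 717. Of the 118, 12 were among the 100 highest, a smaller share than the 100 of all 717.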
